A study of Mus musculus with 10 samples.

Results

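Fibroblastic cells of fat make both the proteases that cut the extracellular matrix and the proteins that hold these proteases back. Matrix metalloproteases (MMPs) and ADAMTS proteases are zinc enzymes that are secreted or anchored at the cell surface, where they cleave collagens, proteoglycans and other matrix proteins. Tissue inhibitors of metalloproteases (TIMPs) bind the zinc site of these enzymes through their own first cysteines. In white fat these proteins take part in the turnover of matrix around adipocyte precursors and vessels.

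The genes described here are 7 proteases (Mmp2, Mmp3, Mmp14, Adamts1, Adamts2, Adamts5 and Adamts12) and 3 inhibitors (Timp1, Timp2 and Timp3), chosen by symbol from a list of matrix proteases and inhibitors. All 10 of these symbols were rows of the count table, out of 14623 genes. The cells were the total stromal vascular fraction (SVF) of inguinal white adipose tissue (iWAT), the non-adipocyte cells that collagenase frees from fat, from lean mice aged 7 weeks. Bbs8 KO cells came from a Bbs8-/- mouse, which lacks a subunit of the BBSome, a transport complex of the primary cilium, and Bbs8 WT cells came from a Bbs8+/+ mouse. Seq-Well S3 single-cell RNA-sequencing gave 8985 Bbs8 KO and 1929 Bbs8 WT cells in 10 groups with a shared code in the cell names, 5 per genotype, which are called barcode sets here. The series text names 1 mouse per genotype. Whether the codes KO5 and KO6, or WT3 and WT4, stand for different mice is not given in the sources used here, so the barcode sets are treated as technical, no test was run between genotypes, and intervals cover counting error only.

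All 7 proteases carry the same kind of zinc-binding site, a histidine and glutamate pair followed by a second and a last histidine, and all 3 TIMPs carry a pair of cysteines at the start of the secreted protein. The coding bases of these sites are shown because they encode the zinc site of the enzymes and the end of the inhibitors that binds it. Each run holds 33 bases, 5′ to 3′ on the coding strand, from GENCODE transcripts on GRCm38, and capitals mark the codons of the zinc-binding histidines and the glutamate, or of the cysteines.
Mmp2: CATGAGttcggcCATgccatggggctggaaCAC
Mmp3: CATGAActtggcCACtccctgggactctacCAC
Mmp14: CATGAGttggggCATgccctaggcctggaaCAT
Adamts1: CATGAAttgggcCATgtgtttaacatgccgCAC
Adamts2: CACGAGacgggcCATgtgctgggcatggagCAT
Adamts5: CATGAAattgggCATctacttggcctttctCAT
Adamts12: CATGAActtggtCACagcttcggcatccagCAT
Timp1: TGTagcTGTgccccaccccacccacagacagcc
Timp2: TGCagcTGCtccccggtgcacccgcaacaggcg
Timp3: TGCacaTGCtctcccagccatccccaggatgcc

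The site of Mmp2 lies in exon 8 (chr8:92839279-92839311, plus strand), that of Mmp3 in exon 5 (chr9:7449775-7449807, plus strand) and that of Mmp14 in exon 5 (chr14:54437627-54437659, plus strand). In the 4 ADAMTS genes an intron falls inside the site. It separates exons 3 and 4 in Adamts1 (chr16:85799191-85799545, minus strand), exons 7 and 8 in Adamts2 (chr11:50775403-50776134, plus strand), exons 2 and 3 in Adamts5 (chr16:85878015-85887826, minus strand) and exons 7 and 8 in Adamts12 (chr15:11241529-11255564, plus strand). The TIMP sites lie in exon 2 of Timp1 (chrX:20871111-20871143, plus strand), exon 1 of Timp2 (chr11:118354980-118355012, minus strand) and exon 1 of Timp3 (chr10:86300923-86300955, plus strand). Mmp2 and Mmp14 shared 27 of the 33 bases, the most of any pair of proteases, and Mmp3 and Adamts1 shared 17, the fewest. Adamts1 and Adamts5 are neighbours on chromosome 16, at 85793827 to 85803113 and at 85856173 to 85901828, both on the minus strand.

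Cells were grouped without these 10 genes. Clusters were named from markers: P1-like cells (Dpp4, Pi16, Sema3c), P2-like cells (Col15a1, Sdc1, Icam1), P3-like cells (F3, Gdf10, Inmt), and marker-poor stromal cells, which carried all 8 pan-stromal markers but passed the naming rule for no subtype. These 4 classes made up all stromal cells, 2374 of Bbs8 KO and 780 of Bbs8 WT. P2-like cells were named most weakly. The mean log2 fold of their marker list over the other stromal cells was 0.847, against 2.335 for P1-like and 2.932 for P3-like cells. Levels are given as CPM, the unique molecular identifiers (UMIs) of a gene per 1000000 UMIs of a class, with exact Poisson 95% intervals. The marker-poor stromal cells of both mice were not alike: the 8 pan-stromal markers summed to 40356 CPM in Bbs8 KO, against 86753 CPM in Bbs8 WT, the T and B cell markers to 2865 and 534 CPM, and mitochondrial UMIs to 9.28% and 7.37%. In the 3 subtypes summed (P1-like, P2-like, P3-like), called named stromal cells here, the pan-stromal markers summed to 77822 and 82616 CPM, and the main ratios are also given for these cells. They were not alike in other markers: those of T and B cells summed to 911 and 273 CPM, of macrophages to 312 and 116 CPM and of endothelial cells to 170 and 46.3 CPM. Unnamed clusters held 2274 Bbs8 KO and 251 Bbs8 WT cells, and 1 of them, of 932 cells, came to 98.6% from 1 Bbs8 KO set. Bbs8 itself, listed as Ttc8, had 0 UMIs in Bbs8 KO and 5 UMIs in Bbs8 WT.

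Most molecules of the 10 genes were found in stromal cells. In Bbs8 WT, all stromal cells held 87.1% of the Mmp2 UMIs, 86.7% of the Mmp3 UMIs, 87% of the Mmp14 UMIs and 89.6% of the Adamts5 UMIs. In Bbs8 KO, where stromal cells were 26.4% of the cells against 40.4% in Bbs8 WT, these shares were 78.4%, 72.9%, 76.5% and 69.1%. Timp3 and Adamts1 were spread most widely, with 40.8% and 41.1% of their UMIs in stromal cells of Bbs8 KO and 52.1% and 62.3% in Bbs8 WT.

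Mmp2 (ENSMUSG00000031740, chromosome 8, 92827291 to 92853420), a gelatinase that degrades denatured collagen and basement membrane collagen, had 2076 CPM (1886 to 2279) in P1-like, 1060 CPM (946 to 1182) in P2-like and 1548 CPM (1279 to 1857) in P3-like cells of Bbs8 KO. In Bbs8 WT the same classes had 1921, 1996 and 2003 CPM, whose counting intervals overlapped. Mmp2 therefore differed between subtypes in the Bbs8 KO mouse, with P2-like cells lowest, and no such order was detectable in the Bbs8 WT mouse.

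Mmp3 (ENSMUSG00000043613, chromosome 9, 7445822 to 7455975), a stromelysin that cleaves proteoglycans and fibronectin and can activate other MMPs, was highest in P3-like cells of both mice. It had 1415 CPM there in Bbs8 KO, against 1704 CPM in Bbs8 WT. P2-like cells followed with 651 and 784 CPM, and P1-like cells with 369 and 685 CPM. The order of P2-like and P1-like cells was clear of the counting intervals in Bbs8 KO only. The study uses Mmp3 as a P3 marker, but it was left out of the lists that named these clusters.

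Mmp14 (ENSMUSG00000000957, chromosome 14, 54431612 to 54445364) encodes a membrane-anchored MMP that cuts fibrillar collagen and activates the precursor of Mmp2, with Timp2 as the adaptor. P2-like cells had the highest level, 1053 CPM (940 to 1175) in Bbs8 KO, against 1013 CPM (826 to 1229) in Bbs8 WT. P1-like cells had 681 and 710 CPM, and P3-like cells 374 and 688 CPM. The counting intervals of P1-like and P2-like cells overlapped in Bbs8 WT and not in Bbs8 KO. The P1-like value of Bbs8 WT depended on the WT4_p2 set. Without it the log2 ratio of Bbs8 KO over Bbs8 WT in P1-like cells was 0.53 instead of -0.06.

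Timp2 (ENSMUSG00000017466, chromosome 11, 118301069 to 118355740), the inhibitor that also serves that activation, was highest in P1-like cells, with 3234 CPM (2997 to 3486) in Bbs8 KO, against 3169 CPM (2795 to 3580) in Bbs8 WT. P3-like cells had 2002 and 1943 CPM and P2-like cells 1182 and 1430 CPM. The order P1-like, P3-like, P2-like was the same in both mice, and P3-like and P2-like cells of Bbs8 WT had counting intervals that overlapped.

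Timp3 (ENSMUSG00000020044, chromosome 10, 86300372 to 86349506), which binds to the matrix and also inhibits ADAMTS proteases, had 955 and 746 CPM in P1-like, 355 and 467 CPM in P2-like and 534 and 628 CPM in P3-like cells of Bbs8 KO and Bbs8 WT. Timp1 (ENSMUSG00000001131, chromosome X, 20870166 to 20874735), a secreted inhibitor, was sparse, with 108 UMIs in all stromal cells of Bbs8 KO and 26 in Bbs8 WT. Its classes were not in the same order in both mice.

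Adamts12 (ENSMUSG00000047497, chromosome 15, 11064790 to 11349231), a less studied ADAMTS protease, was highest in P2-like cells among the named subtypes. It had 894 CPM (790 to 1007) there in Bbs8 KO, against 953 CPM (772 to 1164) in Bbs8 WT. P1-like cells had 199 CPM and 220 CPM, and P3-like cells 347 CPM and 269 CPM. The P1-like value of Bbs8 WT came from 18 UMIs in sets that ran from 51.1 to 1041 CPM, and the log2 ratio of Bbs8 KO over Bbs8 WT there, -0.15, was -0.90 without the WT4_p2 set. Adamts5 (ENSMUSG00000022894), which cleaves the proteoglycans aggrecan and versican, was highest in P1-like cells, with 979 CPM (Bbs8 KO) and 1236 CPM (Bbs8 WT), against 508 and 616 CPM in P2-like cells and 521 and 329 CPM in P3-like cells. Adamts2 (ENSMUSG00000036545, chromosome 11, 50602084 to 50807573), which removes the N-terminal propeptide of procollagens, had 988 and 746 CPM in P1-like, 734 and 635 CPM in P2-like and 841 and 957 CPM in P3-like cells. Adamts1 (ENSMUSG00000022893), which cleaves versican, had 33 UMIs in P1-like cells of Bbs8 KO and 9 in Bbs8 WT, and its stromal classes could not be ordered at this depth.

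**Figure D1:**
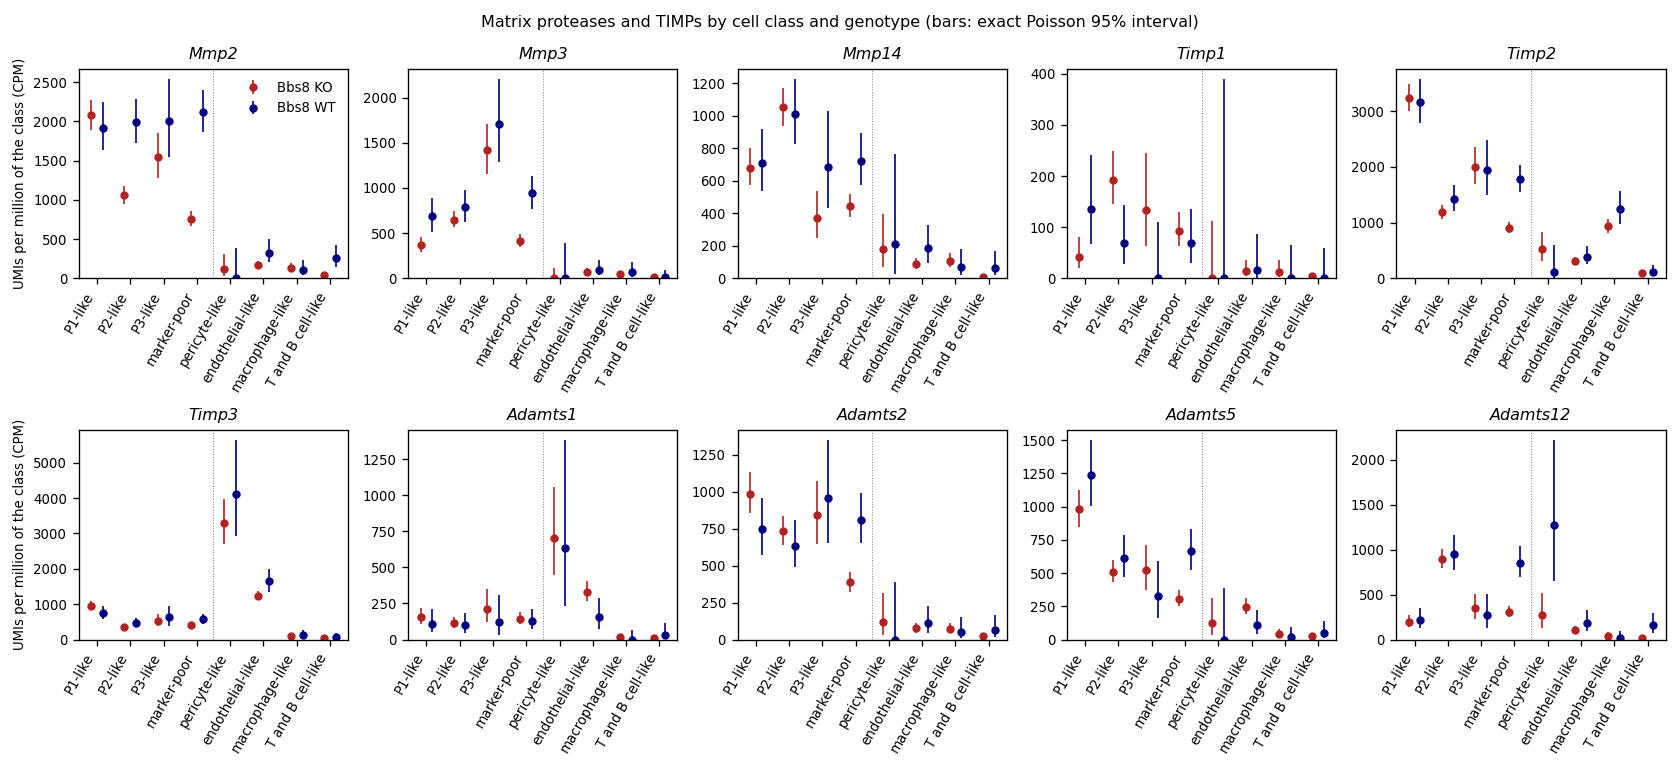
Levels of each gene in 8 cell classes, as CPM on a linear axis from 0, with red points for Bbs8 KO and navy points for Bbs8 WT and exact Poisson 95% intervals as bars. Among the named subtypes, Adamts12 and Mmp14 are highest in P2-like, Timp2 and Adamts5 in P1-like and Mmp3 in P3-like cells, and over all classes shown Timp3 and Adamts1 are highest in pericyte-like cells.

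A difference between subtypes of at least 2-fold, in the same direction in both mice and with at least 20 UMIs over both classes in each mouse, served as the call. Between P1-like and P2-like cells, 2 of 8 genes with enough UMIs passed: Timp2 was higher in P1-like cells, with log2 ratios of 1.45 (Bbs8 KO) and 1.15 (Bbs8 WT), and Adamts12 was lower, with log2 ratios of -2.14 and -2.09. Of all 1431 genes with enough UMIs, 12.8% passed. Adamts5 lay at the border, with log2 ratios of 0.94 and 1. Between P1-like and P3-like cells, 1 of 8 passed, Mmp3, with log2 ratios of -1.93 and -1.31, against 13.4% of 751 genes. Between P2-like and P3-like cells, 2 of 8 passed, Mmp3 with a log2 ratio of -1.11 in both mice and Adamts12 with 1.35 and 1.81, against 12.3% of 979 genes. With the 10 genes kept in the clustering, Mmp3 no longer passed between P2-like and P3-like cells. The cells were clustered on other genes, so these counts are a description of the classes and not a test.

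Outside the stroma, Timp3 had its highest levels in pericyte-like and endothelial-like cells, and Timp2 in macrophage-like cells. In pericyte-like cells, named from Rgs5, Myh11, Acta2 and other mural markers, Timp3 reached 3300 CPM (2707 to 3984) in the 63 cells of Bbs8 KO and 4127 CPM (2934 to 5641) in the 21 cells of Bbs8 WT. Adamts1 had 703 and 635 CPM in these cells, from 23 and 6 UMIs, above its values in the named subtypes of the same mouse, with a counting interval that overlapped, among these subtypes, that of P3-like cells in Bbs8 WT alone. Mmp3 and Timp1 had 0 UMIs there in both mice, which allows up to 91.7 CPM in Bbs8 KO, against 317 CPM in Bbs8 WT. Adamts12 had 9 UMIs in Bbs8 KO, against 12 in Bbs8 WT, or 275 and 1270 CPM, and not every Bbs8 WT set held pericyte-like cells.

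Endothelial-like cells (767 of Bbs8 KO, 205 of Bbs8 WT) also carried Timp3, at 1230 and 1653 CPM. They pooled a cluster led by Mmrn2 and Podxl, with a weaker endothelial marker score (418 and 86 cells), and a cluster led by Ptprb and Btnl9 (349 and 119 cells), and the part of this unequal mix in the values of the class was not tested. Adamts1 had 330 CPM and 156 CPM there, and Adamts5 247 CPM and 109 CPM, with 10 and 7 UMIs in Bbs8 WT. Macrophage-like cells carried Timp2, at 933 CPM in Bbs8 KO, against 1248 CPM in Bbs8 WT, and every other gene of the 10 lay at or below 141 CPM. Monocyte-like cells had 567 and 280 CPM of Timp2. In T cell-like and B cell-like cells together every gene was at or below 103 CPM in Bbs8 KO, against 260 CPM in Bbs8 WT. The pan-stromal markers, which lymphocytes lack, summed to 1513 CPM in those Bbs8 KO cells and 4329 CPM in those Bbs8 WT cells. Low levels outside the stroma may be background, which was not tested.

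The balance of inhibitor to protease molecules differed between cell classes. Timp1, Timp2 and Timp3 together made up 43.7% (41.6% to 45.9%) of the UMIs of the 10 genes in P1-like cells of Bbs8 KO and 41.8% (38.4% to 45.4%) in Bbs8 WT, with exact binomial 95% intervals. In P2-like cells the share was 25.7% (23.8% to 27.6%) and 24.4% (21.5% to 27.5%). The P1-like and P2-like intervals did not overlap in either mouse, whereas those of both mice overlapped within each of these classes. P3-like cells had 33.7% (29.9% to 37.6%) and 29.8% (24.5% to 35.4%), and in Bbs8 WT this interval overlapped that of P2-like cells. Their Bbs8 WT sets ran from 13.5% to 64%. The share was 71.4% and 66.7% in pericyte-like, 58.8% and 63.8% in endothelial-like and 69.7% and 80.6% in macrophage-like cells. In all stromal cells it was 34.4% in Bbs8 KO, against 30.9% in Bbs8 WT, a difference of 3.47 percentage points (1.41 to 5.53). Barcode sets ran from 32.3% to 36.2% in Bbs8 KO and from 25.7% to 35.7% in Bbs8 WT and overlapped. In named stromal cells the share was 34.6% (33.2% to 36%) and 32.5% (30.4% to 34.7%), with intervals that overlapped, and in marker-poor stromal cells it was 33.6% (31.2% to 36.2%) and 27.9% (25.1% to 30.8%), with intervals that did not.

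**Figure D2:**
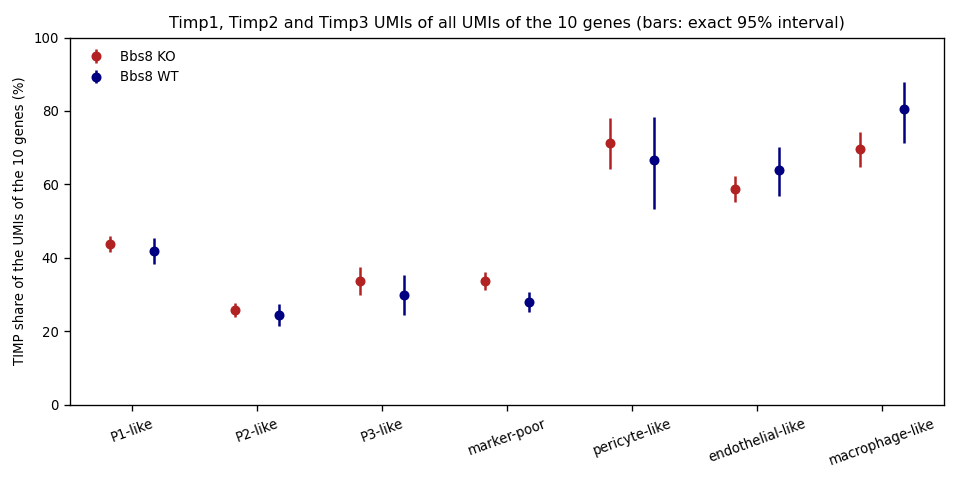
Share of Timp1, Timp2 and Timp3 in the UMIs of the 10 genes, in percent, by cell class, with Bbs8 KO in red, Bbs8 WT in navy and exact binomial 95% intervals as bars. P1-like cells sit above 40%, P2-like cells near 25%, and the pericyte-like, endothelial-like and macrophage-like cells above 55%.

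Between genotypes, 8 of the 10 genes were lower in all stromal cells of Bbs8 KO, as were 38.6% of 7640 genes. None of the 10 was 2-fold apart, while 17.6% of these genes were. The median log2 ratio of Bbs8 KO over Bbs8 WT (with 5 CPM added to both levels) was -0.27, against 0.18 over all genes. The barcode sets of both mice did not overlap for 2 of the 10, Mmp2 and Adamts5, against 7.81% of all genes.

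Mmp2 had 1205, 1154, 1117, 1365 and 1323 CPM in the 5 Bbs8 KO sets and 2066, 2361, 1626, 2026 and 1933 CPM in the 5 Bbs8 WT sets. The lowest Bbs8 WT set lay above the highest Bbs8 KO set. Summed, Mmp2 was 1222 CPM in Bbs8 KO, against 2021 CPM in Bbs8 WT, which gave a log2 ratio of -0.72 (95% counting interval -0.86 to -0.59). Adamts5 had 552, 499, 525, 575 and 569 CPM in the Bbs8 KO sets and 651, 1003, 929, 647 and 781 CPM in the Bbs8 WT sets. Its sums were 542 and 756 CPM, with a log2 ratio of -0.48 (-0.70 to -0.25).

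Mmp3 had 668, 423, 667, 487 and 513 CPM in the Bbs8 KO sets and 606, 1066, 1028, 861 and 1011 CPM in the Bbs8 WT sets, of which 1 fell within the Bbs8 KO range. Its log2 ratio was -0.68 (-0.90 to -0.48). Adamts12 was at 478 and 669 CPM, which gave a log2 ratio of -0.48 (-0.72 to -0.25), and Timp2 at 1619 and 2030 CPM, which gave a log2 ratio of -0.33 (-0.46 to -0.19). Mmp14 had a log2 ratio of -0.22 (-0.43 to -0.01). The intervals of Timp3 (-0.17), Adamts2 (-0.16), Adamts1 (0.29) and Timp1 (0.55) included 0.

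**Figure D3:**
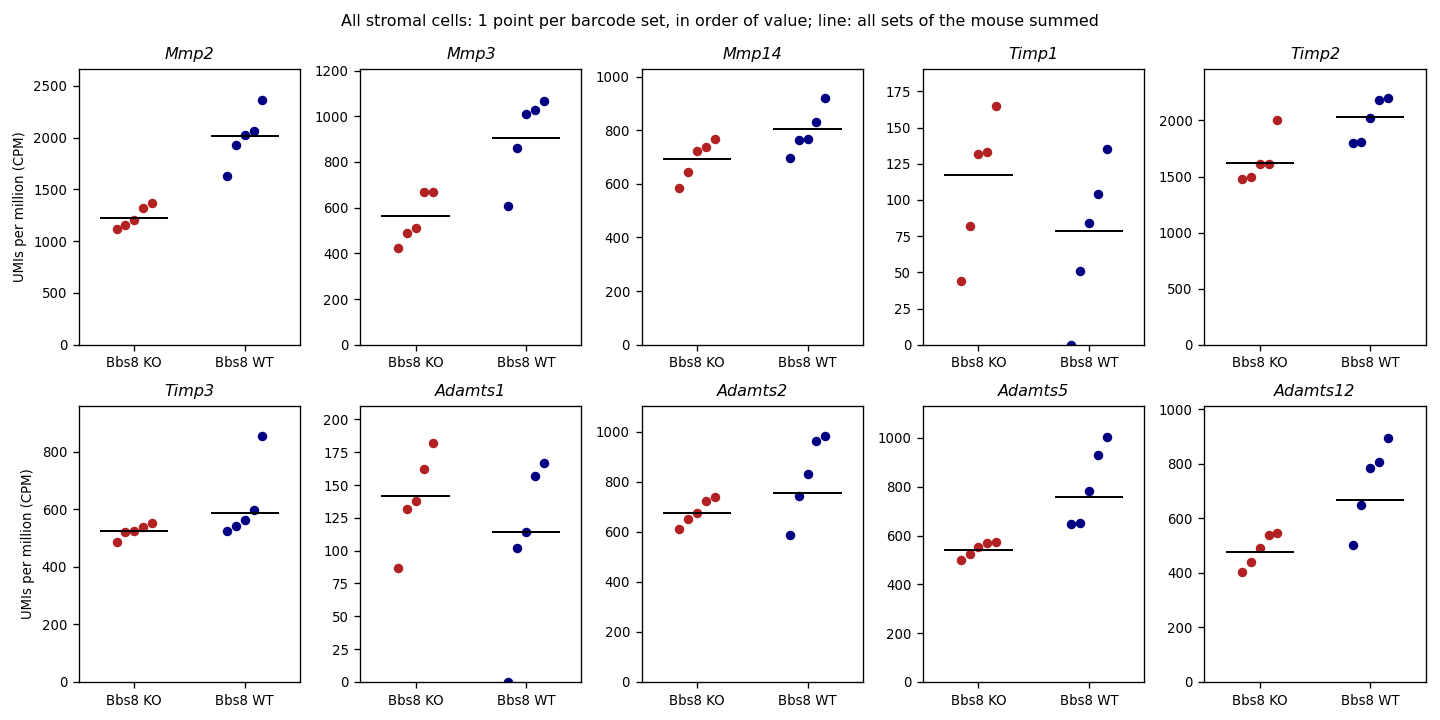
CPM of each gene in all stromal cells, with 1 point per barcode set in order of value, Bbs8 KO in red and Bbs8 WT in navy, and a line at the value of all sets summed. The Mmp2 points run from 1117 to 1365 CPM in Bbs8 KO and from 1626 to 2361 CPM in Bbs8 WT, and those of Adamts5 from 499 to 575 and from 647 to 1003 CPM.

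These ratios moved with which stromal cells were counted. In the marker-poor stromal cells, where the pan-stromal markers summed to 40356 CPM in Bbs8 KO, against 86753 CPM in Bbs8 WT, Mmp2 was 761 CPM against 2120 CPM (log2 ratio -1.47, -1.74 to -1.22). Adamts12 had a log2 ratio of -1.44, Mmp3 -1.16, Adamts5 -1.11, Adamts2 -1.05, Timp2 -0.96, Mmp14 -0.70 and Timp3 -0.50 in the same cells, while Timp1 (0.39, -0.74 to 1.74) and Adamts1 (0.13, -0.73 to 1.08) had intervals that included 0. The part of the marker differences in these ratios was not tested. The share of all genes past 2-fold was not computed in the marker-poor cells, so these ratios are not read as particular to the 10 genes. In named stromal cells, where these markers summed to 77822 and 82616 CPM, the 10 genes had a median log2 ratio of -0.02, against 0.11 over all genes. None of the 10 was 2-fold apart (14.4% of all genes) and none had barcode sets that did not overlap (4.54% of all genes). Mmp2 (1488 against 1969 CPM, log2 ratio -0.40, -0.57 to -0.23) and Mmp3 (647 against 889 CPM, -0.46, -0.71 to -0.20) were the genes whose intervals left out 0. Other-cell markers were higher in the named stromal cells of Bbs8 KO. Mmp2 in T cell-like and B cell-like cells was 46.9 CPM in Bbs8 KO, against 260 CPM in Bbs8 WT. The part of both in these ratios was not tested. Adamts12 was at 574 and 570 CPM and Timp3 at 594 and 598 CPM. When levels in all stromal cells were taken relative to the pan-stromal markers, the median was 0.12 and Mmp2 was at -0.33. Mmp3 was then at -0.29 and Adamts5 at -0.09, while Timp2 (0.06) and Mmp14 (0.17) were above 0. The pan-stromal markers include the collagen genes Col1a1 and Col3a1, which the study reports as higher in sorted P1 cells of Bbs8-/- mice. Their sum may therefore itself depend on genotype.

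Shares of cells with a UMI were compared at 1 depth. With every cell thinned to 200 UMIs, 50.9% (48.5% to 53.2%) of 1746 stromal cells of Bbs8 KO and 64.3% (60.6% to 68%) of 676 of Bbs8 WT had a UMI of any of the 7 proteases, and 628 and 104 shallower cells were left out. Before thinning the shares were 59.6% and 76.4%, at median depths of 277 and 311.5 UMIs. In named stromal cells the thinned shares were 59.7% (56.6% to 62.8%) and 63.1% (58.2% to 67.8%), with intervals that overlapped. The share in T cell-like and B cell-like cells was 2.38% in Bbs8 KO, against 11.4% in Bbs8 WT, after thinning. Before thinning it was 4.59% and 10.3%, at median depths of 271 and 234 UMIs. A UMI of any TIMP was found in 38.5% and 39.6% of the thinned named stromal cells of Bbs8 KO and Bbs8 WT.

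In P2-like cells Mmp2 was lower in Bbs8 KO. Its Bbs8 KO sets had 963, 972, 990, 986 and 1399 CPM, and its Bbs8 WT sets had 2332, 2324, 1251, 1952 and 1962 CPM. Only 1 set of each genotype fell in the range of the other. The sums were 1060 and 1996 CPM, which gave a log2 ratio of -0.91 (-1.17 to -0.65). After thinning, 17.8% (14.5% to 21.4%) of the P2-like cells of Bbs8 KO and 32% (25.5% to 39%) of those of Bbs8 WT had an Mmp2 UMI. The pan-stromal markers summed to 78101 and 85608 CPM in these cells and the immediate early genes to 834 and 1211 CPM. Markers of other cell types were higher in the Bbs8 KO cells, at 850 and 228 CPM for T and B cells, 355 and 169 CPM for macrophages, 169 and 59.6 CPM for endothelial cells and 176 and 39.7 CPM for pericytes. Mmp2 in T cell-like and B cell-like cells was 46.9 CPM in Bbs8 KO, against 260 CPM in Bbs8 WT. After thinning, 0.917% and 3.8% of those cells had an Mmp2 UMI. The part of these markers, genes and lymphocyte levels in the Mmp2 difference of P2-like cells was not tested.

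In P1-like cells Mmp2 did not show that difference. The Bbs8 KO sets had 1892, 1920, 1999, 2139 and 2431 CPM and the Bbs8 WT sets 1353, 2576, 1665, 2198 and 1177 CPM. The log2 ratio was 0.11 (-0.15 to 0.38), and the difference from the P2-like ratio was 1.02 (0.66 to 1.39, counting error only). Timp3 had a log2 ratio of 0.35 (-0.06 to 0.79) among P1-like cells and of -0.39 (-0.90 to 0.13) among P2-like cells, and both intervals included 0. The difference of these ratios was 0.75 (0.10 to 1.39), but the P1-like ratio was -0.21 for the KO5 against the WT3 sets, and after thinning 17.8% and 18% of the P1-like cells had a Timp3 UMI.

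Timp1 passed 2-fold in opposite directions in these classes. It had 9 UMIs in P1-like cells of Bbs8 KO and 11 in Bbs8 WT, or 42.6 and 135 CPM, which gave a log2 ratio of -1.55 (-3.11 to -0.25). In P2-like cells it had 58 and 7 UMIs, or 193 and 69.5 CPM, which gave a log2 ratio of 1.41 (0.34 to 2.85). The barcode sets of both mice overlapped in each class, and in P2-like cells they ran from 39.4 to 274 CPM in Bbs8 KO and from 0 to 145 CPM in Bbs8 WT. With cells called by markers without clusters the log2 ratios were -0.10 and 0.68, so that neither class was then past 2-fold. In P3-like cells Timp1 had 10 UMIs in Bbs8 KO, or 133 CPM (64 to 245), against 0 in Bbs8 WT, where 0 UMIs allow up to 89.7 CPM, a limit that lay within the Bbs8 KO interval.

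Mmp3 in P1-like cells had 264, 500, 295, 409 and 401 CPM in the Bbs8 KO sets and 416, 166, 624, 792 and 991 CPM in the Bbs8 WT sets. Its log2 ratio was -0.88 (-1.41 to -0.37) from 78 and 56 UMIs. Against the WT3 sets alone it was 0.12 for the KO5 sets and 0.11 for the KO6 sets, so the lower level rested on the WT4 sets. Adamts2 in P1-like cells was at 988 CPM in Bbs8 KO, against 746 CPM in Bbs8 WT. That gave a log2 ratio of 0.40 (-0.01 to 0.84), and the Adamts2 sets overlapped. In replicated bulk RNA-sequencing of P1 cells sorted by surface proteins, the study lists both Mmp3 and Adamts2 as higher in Bbs8-/- mice. The Mmp3 ratio of the P1-like cells here, from 1 mouse per genotype, had the opposite sign.

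Of the 10 genes, 1 was past 2-fold in P1-like cells (Timp1), against 17.4% of 2298 genes, and none had barcode sets that did not overlap, against 3.31%. In P2-like cells 1 was past 2-fold (Timp1), against 17.6% of 3521 genes, and 1 had sets that did not overlap, against 4.15%. That was Timp3, at 389, 365, 286, 375 and 397 CPM in Bbs8 KO and 560, 436, 556, 408 and 535 CPM in Bbs8 WT, with a log2 ratio of -0.39 whose interval (-0.90 to 0.13) included 0. In P3-like cells none of 9 genes with enough UMIs was past 2-fold, against 18.1% of 700 genes, and none had sets that did not overlap, against 3.00%. Mmp14 there had 28 and 23 UMIs, or 374 and 688 CPM, and a log2 ratio of -0.87 (-1.73 to -0.02).

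**Figure D4:**
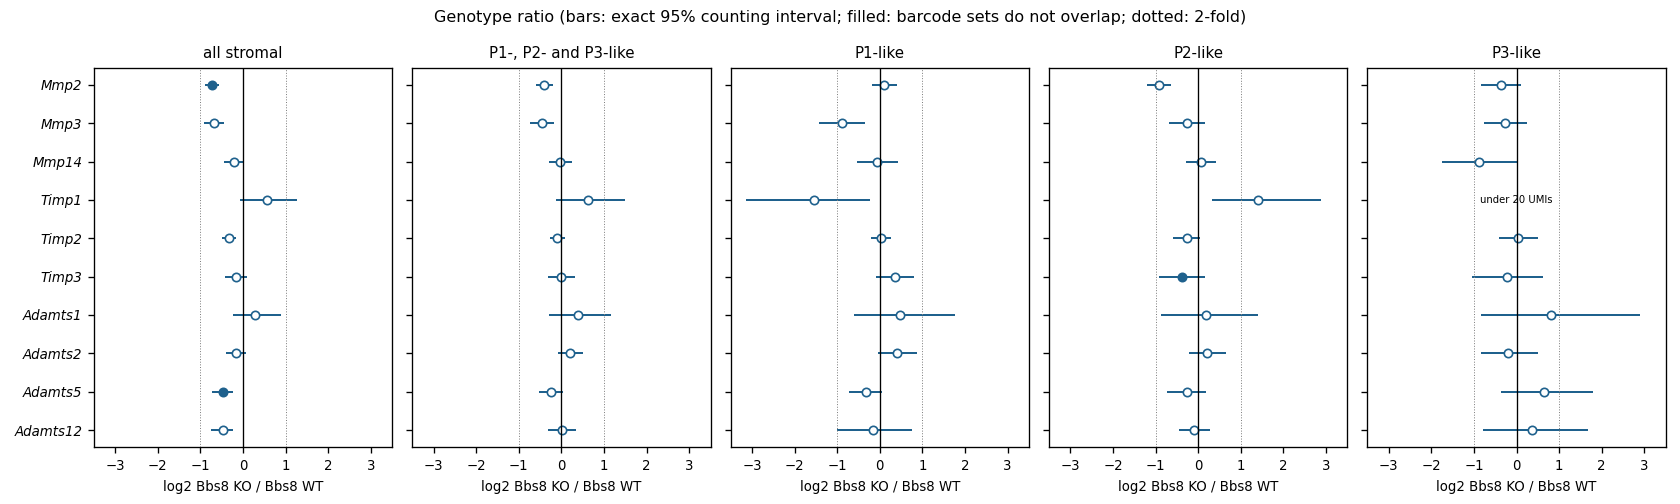
Log2 ratio of Bbs8 KO over Bbs8 WT for each gene in 5 groups of stromal cells, with exact 95% counting intervals as bars, filled points where the barcode sets of both mice do not overlap, and dotted lines at 2-fold. Mmp2 sits at -0.72 in all stromal cells, 0.11 for P1-like and -0.91 for P2-like cells, and Timp1 at -1.55 for P1-like and 1.41 for P2-like cells.

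In endothelial-like cells Adamts1 and Adamts5 were higher and Timp3 and Mmp2 lower in Bbs8 KO. Timp3 had a log2 ratio of -0.42 (-0.74 to -0.10) from 358 and 106 UMIs, with sets that overlapped, and the other genes had few UMIs behind the Bbs8 WT values. The log2 ratio of Adamts1 was 1.06 (0.14 to 2.19) from 96 and 10 UMIs, and that of Adamts5 1.14 (0.06 to 2.55) from 72 and 7 UMIs, with sets that overlapped. When the KO5 or KO6 sets were set against the WT3 or WT4 sets, the Adamts1 ratio ran from 0.25 to 1.84 and that of Adamts5 from 0.66 to 1.85. Mmp2 there was 172 and 327 CPM, with a log2 ratio of -0.91 (-1.69 to -0.12), and its sets ran from 130 to 204 CPM and from 216 to 457 CPM. Mmp14 was 85.9 and 187 CPM (-1.08) from 25 and 12 UMIs, with an interval that reached 0. Shares of all genes past 2-fold or with sets that do not overlap were not computed in endothelial-like cells. The ratios there are therefore not read as particular to these genes. These cells also carried pan-stromal markers at 8894 and 9557 CPM, pericyte markers at 1261 and 2339 CPM and T and B cell markers at 2140 and 702 CPM, whose part in these values was not tested. The Mmp2 level in T cell-like and B cell-like cells was 46.9 CPM in Bbs8 KO, against 260 CPM in Bbs8 WT. Its part in the endothelial-like difference was not tested. Timp3 in pericyte-like cells had a log2 ratio of -0.32 (-0.86 to 0.24), and Timp2 in macrophage-like cells -0.42 (-0.81 to -0.02), with sets that overlapped. The macrophage markers of the macrophage-like cells summed to 13633 CPM in Bbs8 KO, against 18189 CPM in Bbs8 WT, and the T and B cell markers to 2286 and 984 CPM, and their part in the Timp2 ratio was not tested. Adamts12 in pericyte-like cells had a log2 ratio of -2.19 (-3.63 to -0.84) from 9 and 12 UMIs. The sets that held such cells did not overlap. In Bbs8 WT these were WT3_p1, WT4_p2 and WT4_p3 alone, with 4, 14 and 3 cells. Shares of all genes past 2-fold or without overlap were not computed in this class, so the ratio is not read as particular to Adamts12.

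Over 26 sums (13 classes in each mouse), the genes whose level followed each of the 10 most closely were named by Pearson's r. Adamts2 was most like Plat (Pearson's r of log2 levels 0.976), Fbn1 (0.952) and Lama2 (0.947), and Mmp14 most like Col6a2 (0.955), Rarres2 (0.952) and Col6a1 (0.946). Mmp2 followed Plat (0.919) and Dcn (0.893), Mmp3 followed Htra3 (0.916) and Dcn (0.915), and Adamts5 followed Cpxm1 (0.927) and Efemp1 (0.918). Timp2 was most like Gsn (0.884), Adamts12 like Col6a2 (0.876) and Timp1 like Dclk1 (0.777). Timp3 followed Cald1 (0.915), and Adamts1 followed C1qtnf6 (0.902) and the endothelial receptor gene Tek (0.876). The 26 sums share mice and libraries, so the values of r are a description.

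Other genes of these families were mostly scarce. Of 20 other MMPs, 10 were in the table and 3 had at least 20 UMIs in stromal cells, of which 1 was past 2-fold. In the same cells 17.6% of 7640 genes were past 2-fold, and the counts of the lists described next are to be read against that share. The 1 MMP was Mmp19, a secreted MMP, at 155 CPM in Bbs8 KO, against 392 CPM in Bbs8 WT (log2 ratio -1.31, -1.69 to -0.99), and at 189 and 398 CPM in named stromal cells (-1.06). Of 20 other ADAMTS and ADAMTS-like genes, 15 were in the table and 9 had enough UMIs. Of these, 2 were past 2-fold (against the same 17.6% of all genes), both higher in Bbs8 KO: Adamts10 at 67 and 24.1 CPM (73.2 and 32.4 CPM in named stromal cells), and Adamtsl5 at 30.3 and 12.1 CPM with an interval (-0.19 to 3.30) that included 0 and a log2 ratio of 0.60 in named stromal cells, both named here after their values were seen. Adamts15, the most abundant of these, had 340 and 425 CPM (log2 ratio -0.32), Adamts4, an aggrecanase, 116 and 81.3 CPM, and Adamtsl1 119 and 133 CPM. In named stromal cells Adamts4 was at 129 and 46.3 CPM, which gave a log2 ratio of 1.39. Of 10 partner genes, 9 had enough UMIs and none was past 2-fold. Among them were Lrp1, which clears MMP and TIMP complexes from the cell surface, at 558 and 798 CPM (log2 ratio -0.51, and -0.25 in named stromal cells), and Pcolce, which enhances procollagen C-terminal processing, at 707 and 569 CPM (0.31). Bmp1, a procollagen C-proteinase, had 335 and 313 CPM, and Adam17, a membrane sheddase that Timp3 inhibits, 138 and 111 CPM. Of 8 immediate early genes with enough UMIs, which respond to the stress of tissue digestion, 1 was past 2-fold, Dusp1, at 55.1 and 21.1 CPM, and at 61.3 and 27.8 CPM in named stromal cells. The list's median log2 ratio was -0.34, with 6 of the 8 lower in Bbs8 KO, and Fos (-0.69, -1.21 to -0.21) and Egr1 (-0.83, -1.22 to -0.46) had intervals that left out 0. Summed, the immediate early genes were at 670 CPM in Bbs8 KO, against 871 CPM in Bbs8 WT.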

How the data were processed

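Total SVF cells of iWAT from 1 Bbs8 KO and 1 Bbs8 WT mouse were analysed from a single deposited table of UMI counts (14623 genes, 10914 cells). According to the methods and the labels, the authors demultiplexed reads with bcl2fastq 2.20, counted UMIs with dropSeqPipe (Drop-seq tools, STAR) on mm10, evened out depth between samples and removed cells by gene number and mitochondrial share. Whether the deposited counts precede the depth step was not stated. The codes of the 10 barcode sets were not explained and were not matched to single labelled samples, and 0 columns were left unmapped. Of 10847 cell barcodes, 36 occurred in more than 1 set. A Bbs8 KO set held 1635 to 2005 cells, a Bbs8 WT set 196 to 768, and the mice had 3144195 and 715989 UMIs.

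Anchor integration of the barcode sets used Seurat 5.3.0 under R 4.3.3 (2000 features, 30 dimensions, resolution 0.8), with the 10 genes left out of the features and the markers. Clusters of at least 60 cells took the name of the marker list with the highest mean log2 fold (with 20 CPM added) where the mean and at least 3 markers exceeded 0.5. A cluster with over 90% of its cells from 1 set stayed unnamed, a rule added after the clusters were seen. Cell class names were rebuilt here, so they can depart from the authors' annotation. No doublets were removed, since Scrublet in scanpy 1.11.5 marked only 0.229% of cells, too few to have worked. The genes, lists and thresholds were chosen with earlier results of these data known.

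Counts were summed per class and mouse. Ratios are log2 with 5 CPM added, and their intervals are exact conditional ones without that addition. This step was tested on simulated data. Intervals and limits (3 counts for a count of 0) are at 95% and cover counting error only, and UMIs of 1 cell are not independent samples of a condition. Alternatives were TMM (edgeR 4.0.16) and DESeq2 1.42.0 scaling, other totals, pseudocounts, clusterings, cell filters and sets left out. The text names the 10 genes, genes of the wider lists with at least 20 stromal UMIs (at most 10, by summed UMIs), and from the 3 genes most like each in level, among 3649 genes with at least 200 UMIs. Site sequences came from GENCODE vM21 on GRCm38, the build of the files.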

Additional observations from a re-analysis of the deposited data

Results flagged for a closer look

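In 60 groups of 5 barcode sets (the 10 genes in each mouse, in all stromal, P1-like and P2-like cells), 4 held a set far from the others by Dixon's criterion, which flags about 1 in 20 groups by chance, or 3.0 of 60. Timp2 in all stromal cells was 2007 CPM in the KO6_p2 set, against 1477 to 1611 CPM in the other Bbs8 KO sets. That set also had the highest pan-stromal marker level of the Bbs8 KO sets, 74822 CPM, and its part in the Timp2 value was not tested. Timp3 in all stromal cells was 853 CPM in the WT3_p1 set, from 38 UMIs, against 525 to 597 CPM in the other Bbs8 WT sets. Mmp2 in P2-like cells was 1399 CPM in the KO6_p3 set, against 963 to 990 CPM in the other Bbs8 KO sets, and was still below 4 of the 5 Bbs8 WT sets. Timp3 in P2-like cells was 286 CPM in the KO6_p1 set, from 24 UMIs, against 365 to 397 CPM.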

How the results depend on the processing

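No paired analysis was possible because no set code corresponds to 1 labelled sample and no test was run between the mice. Over 48 results, 1112 values were computed under alternatives, of which 1040 stayed within the spread of the sets or the counting interval and 72 moved. The median log2 ratio of the 10 genes in all stromal cells, -0.27, was -0.47 with TMM and -0.47 with DESeq2 size factors, -0.04 without integration, 0.12 relative to pan-stromal UMIs, -0.02 without marker-poor stromal cells and -0.43 for the KO5 against the WT3 sets. It was -0.31 to -0.25 with 1 set left out. TMM and DESeq2 scaling moved all genes of all stromal cells by -0.195 and -0.204 (log2). With the 10 genes kept in the clustering, 2 genes passed between P1-like and P3-like cells (Mmp3 and Adamts5) and 1 between P2-like and P3-like cells (Adamts12, with Mmp3 lost). The difference in the share of stromal cells with a protease UMI, -13.5 percentage points, was -8.4 with cells thinned to 300 UMIs, and that for a TIMP UMI, -5.2, was -10.8 without thinning. Of 12 ratios whose intervals left out 0, sign changes were seen for Mmp14 (0.17) and Timp2 (0.06) relative to pan-stromal UMIs, Adamts12 (0.01) without marker-poor cells, and Mmp3 in P1-like cells (0.12 and 0.11) against the WT3 sets. Mmp3 in P2-like cells, -0.27, was 0.24 without the WT3_p2 set. Mmp2 ranged from -0.93 to -0.33 in all stromal cells and from -1.36 to -0.55 in P2-like cells. Without integration no P3-like cells were found. The totals relative to pan-stromal UMIs, the exclusion of marker-poor cells and the KO5, KO6, WT3 and WT4 pairs were added after seeing the data. Bbs8 WT sets held few cells per class, which limits the values of Timp1, Adamts1, Adamts12 in P1-like cells and every gene of the pericyte-like and P3-like cells.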
